A study of Mus musculus with 6 samples.

Results

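The 37 genes described here belong to the unfolded protein response and the integrated stress response, and they were taken as a list of names: sensors, transcription factors, chaperones, foldases, degradation factors and metabolic effectors. All 37 were among the 20687 gene symbols of the table and all 37 were among the 15212 genes that passed the filter on low counts. The study set whole lung carrying tumours of KP cells (Lung_KP, 3 samples) against the KP cell line itself (CellLine_KP, 3 samples), and its title names chemokine expression as its subject. Each lung sample pooled 3 mice of the C57BL/6 strain, harvested 28 days after 100000 KP cells had been given in the tail vein, and the 3 samples came from independent experiments. The cell line is labelled as C57BL/6 too, with no treatment of its own, and its 3 samples are given only as a triplicate, so their spread may be technical. The genotype of the line, the age of the mice and a lung without tumours are not given in the labels, and the lungs were digested with collagenase before RNA was extracted.

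Misfolded protein in the endoplasmic reticulum (ER) is sensed by PERK, ATF6 and IRE1, which span its membrane. PERK phosphorylates the initiation factor eIF2alpha, which slows translation in general but favours translation of ATF4, a factor that switches on amino acid supply, CHOP and feedback genes, and other kinases reach the same point when amino acids or haem run short. ATF6 is cut in the Golgi and its released fragment raises chaperone genes, while IRE1 splices the mRNA of XBP1 into the form that drives folding and degradation genes. In lung the pathway is known for its role in secretory cells such as alveolar type 2 and plasma cells, and in tumour cells for adaptation to nutrient and protein folding stress.

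Values below are library-scaled counts (CPM) on library sizes scaled by the trimmed mean of M-values, listed in the order of replicates 1, 2 and 3, and means carry the SD over n = 3. Log2 fold changes run lung minus cell line, with the standard error (SE) and the adjusted p of edgeR's quasi-likelihood test, called below 0.05. The 6 libraries held 22862396, 21343239 and 17786758 estimated counts in lung and 22686289, 18978969 and 20954042 in the cell line. Cell line replicate 1 stood apart from the others: across 15212 genes its log2 level correlated at 0.965 and 0.964 with replicates 2 and 3, which correlated at 0.991 with each other. Lung replicate 2 differed from lung replicates 1 and 3 by transcript length. Among the members it was higher by a median of 0.55 (log2) in the 12 shortest, 850 to 1907 bases, and its median difference was -0.87 in the 12 longest, 3303 to 7242 bases. Markers checked the labels: 7 of 7 alveolar type 2 and 4 of 4 club and airway markers were higher in lung. Sftpa1, Sftpd and Slc34a2 were at 0 in all cell line samples, which allows up to 0.132 to 0.158 CPM on unscaled library sizes. In whole lung, fewer cells of a type and less RNA per cell cannot be told apart.

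Cell line replicate 1 held the highest cell line level of every one of the 37 members, against 44.9% of all tested genes in which it did. It was 2-fold or more above replicates 2 and 3 in 34 members (91.9%), where 6.32% of all genes tested were, and 2-fold or more below them in 0 members, where 6.65% were. The fold compares CPM plus 0.5, which understates the change of low genes, and as replicate 1 is 1 library it has no replicate check. The members were chosen with earlier results of these data known, so these shares are a description and no test. The median over members was 3.65-fold (1.87 on the log2 scale, against 0.01 for all genes). Replicates 2 and 3 were close to each other, with a ratio of replicate 3 to replicate 2 between 0.807 (Derl3) and 1.33 (Sesn2). Summed over the 37 members, the members reached 25729.7 CPM in replicate 1 and 6659 and 6805 CPM in replicates 2 and 3.

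**Figure D1:**
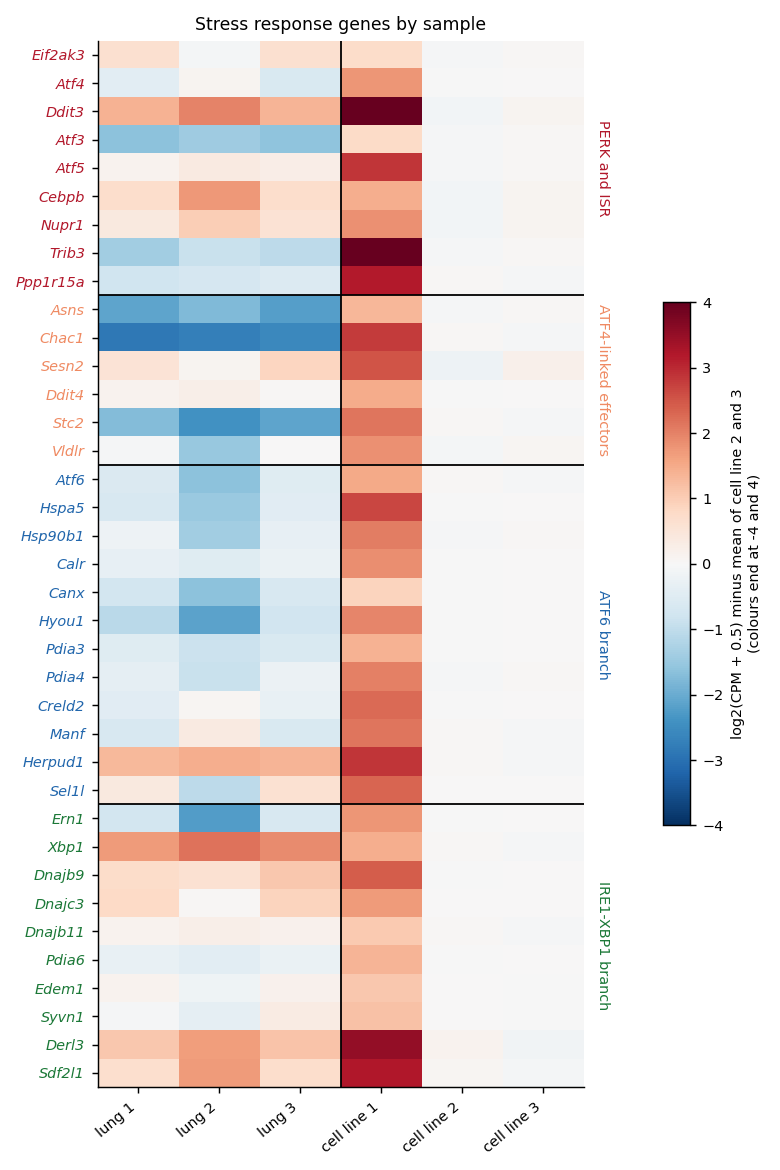
Heat map of the 37 members (rows, by branch) in 6 samples (columns, lung left of cell line), coloured by log2 level (CPM plus 0.5) minus the mean over cell line replicates 2 and 3. Cell line replicate 1 is above 0 in every row, the lung samples are mixed, and the colour scale ends before the 5.60 reached by Ddit3 in replicate 1.

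The size of that excess differed widely among members. It was 5-fold or more in 12 of them, which are 12 of the 100 such genes in the whole table (0.657% of genes tested), and 10-fold or more in 3 of 23 (0.151%). Those 3 were Ddit3 at 48.4-fold, the largest of all 15212 genes, Trib3 at 19.5-fold and Derl3 at 11.5-fold. The 3 members under 2-fold were Eif2ak3 at 1.66, Atf3 at 1.71 and Canx at 1.86. By branch the median was 3.56-fold for the PERK sensor, factors and feedback, 3.98 for the ATF4-linked effectors, 4.09 for the ATF6 branch and 2.95 for the IRE1 and XBP1 branch.

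Whole lung lay below replicate 1 in every member except Xbp1 and Cebpb, and for many members it lay close to replicates 2 and 3. The members summed to 5409, 4312 and 5589.7 CPM in lung, against 25729.7, 6659 and 6805 CPM in the cell line. All lung samples were below all cell line samples in 16 members, where 26.5% of all genes were so, and above them in 1 member, Xbp1, where 35.6% were. In 10 members the lung samples sat above replicates 2 and 3 but below replicate 1, which held for 2.10% of all genes. Replicate 1 was the highest of all 6 samples in 35 members (19.4% of all genes) and 2-fold or more above the highest lung sample in 29 (8.35%).

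By the test, 13 of the 37 members were called (35.1%, against 48.8% of all 15212 genes). Of these, 1 was higher in lung (2.70%, against 31.3% of all genes) and 12 were lower (32.4%, against 17.5%). The median log2 fold change of the members was -1.27, and 0.08 over all genes. As replicate 1 stood apart, the fit was also made without it. There 5 members were higher (13.5%, against 33.1% of all genes) and 7 lower (18.9%, against 19.0%), the median was -0.23 (0.17 over all genes), and 13 members had the other sign. The 7 lower members were lower in both fits, and Xbp1 was higher in both. Without replicate 1 the cell line spread comes from 2 close libraries that may be technical repeats.

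**Figure D2:**
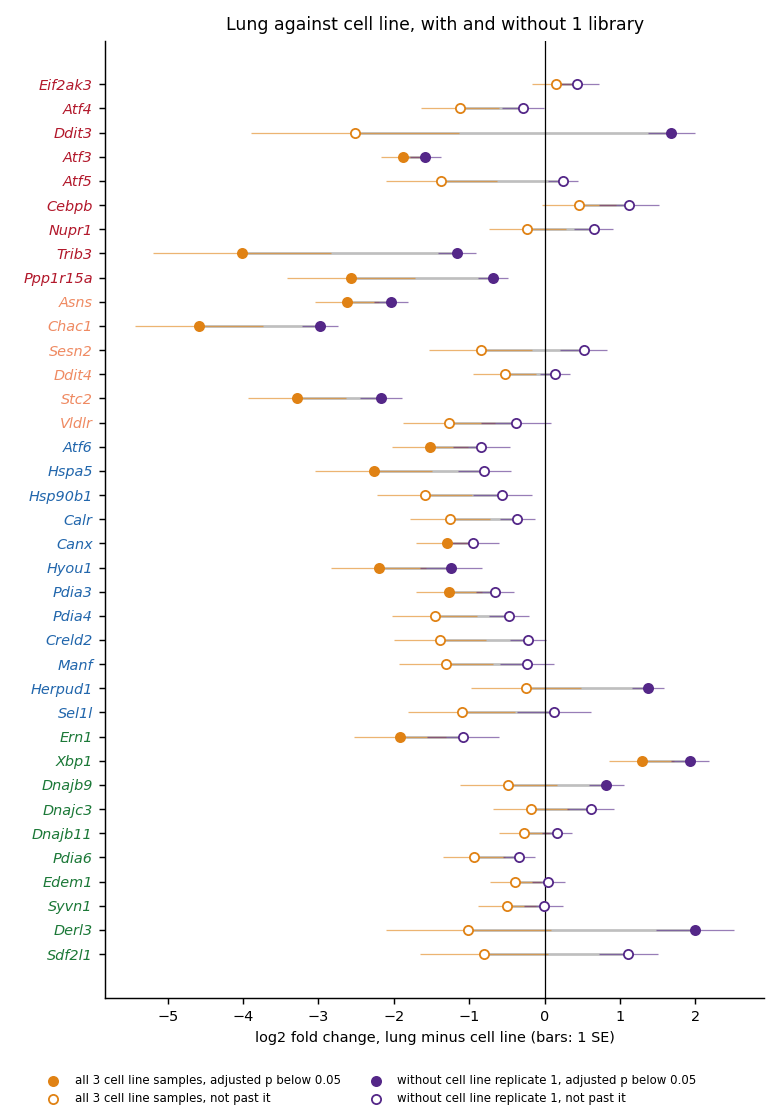
Log2 fold change of lung over cell line for each of the 37 members, with all 6 samples and without cell line replicate 1 (both sets of points with SE bars, filled where adjusted p was below 0.05). The median is -1.27 with all samples and -0.23 without replicate 1, and Asns, Chac1, Stc2, Atf3, Trib3, Ppp1r15a and Hyou1 are lower in both fits.

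The PERK arm opens with its sensor and its transcription factors, and most of the factors differed more between samples than the sensor did. Eif2ak3, which encodes PERK, had 45.1, 27.2 and 44.9 CPM in lung replicates 1, 2 and 3, against 48.3, 28.0 and 29.6 CPM in cell line replicates 1, 2 and 3. Its groups overlapped (log2 fold change of 0.15, SE 0.32, adjusted p = 0.730 by edgeR). Atf4, the central factor of the integrated stress response, had 184, 269 and 163 CPM in lung, against 839.7, 247 and 249 CPM in the cell line. Lung overlapped replicates 2 and 3 and only replicate 1 stood above, at 3.38-fold (log2 fold change of -1.12, SE 0.52, adjusted p = 0.108 by edgeR). ATF4 is controlled largely through translation, which RNA levels do not show.

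Ddit3, the gene of CHOP, a factor tied to cell death under lasting stress, had the largest excess in replicate 1. It had 13, 19.9 and 12.7 CPM in lung replicates 1, 2 and 3, against 249.8, 4.32 and 5.06 CPM in cell line replicates 1, 2 and 3. Lung lay above replicates 2 and 3 and far below replicate 1, so that the direction of the fold change turned: a log2 fold change of -2.51, SE 1.38, adjusted p = 0.166 by edgeR with all samples, and 1.68 with adjusted p = 0.00659 without replicate 1, when it was called higher. Atf3, an early stress factor, had 17.4, 20.3 and 17.7 CPM in lung, against 94.2, 53.0 and 56.8 CPM in the cell line. All lung samples were below all cell line samples, and Atf3 was lower in lung with and without replicate 1 (a log2 fold change of -1.88, SE 0.29, adjusted p = 0.00112 by edgeR, and -1.58 with adjusted p = 0.00155).

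Atf5, a factor translated under stress like ATF4, had 43.5, 50.5 and 47.2 CPM in lung replicates 1, 2 and 3, against 286, 37.7 and 40.8 CPM in cell line replicates 1, 2 and 3. Lung was slightly above replicates 2 and 3, by 0.25 on the log2 scale without replicate 1 (adjusted p = 0.337), and the full fit gave no call either (log2 fold change of -1.37, SE 0.74, adjusted p = 0.161 by edgeR). Cebpb, a leucine zipper factor that pairs with CHOP and ATF4, had 43.4, 89.2 and 43.4 CPM in lung, against 74.6, 24.9 and 28.6 CPM in the cell line. Lung replicate 2 exceeded even cell line replicate 1, the other lung samples lay between replicate 1 and the pair of replicates 2 and 3, and no call was made (log2 fold change of 0.46, SE 0.49, adjusted p = 0.467 by edgeR). Nupr1, a small stress-induced nuclear protein, had 71.7, 109 and 81.5 CPM in lung, against 196, 51.0 and 58.9 CPM in the cell line. Lung lay below replicate 1 and above replicates 2 and 3 (log2 fold change of -0.23, SE 0.51, adjusted p = 0.738 by edgeR).

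The feedback genes were lower in lung in both fits. Trib3, a pseudokinase that binds ATF4 and CHOP and dampens them, had 5.59, 8.18 and 7.22 CPM in lung replicates 1, 2 and 3, against 310.5, 15.1 and 15.8 CPM in cell line replicates 1, 2 and 3. Lung was below every cell line sample, and the log2 fold change was -4.02 (SE 1.18, edgeR adjusted p = 0.0225), or -1.16 (adjusted p = 0.0108) without replicate 1. Ppp1r15a, which encodes GADD34 and directs a phosphatase to eIF2alpha, had 29.3, 31.8 and 35.2 CPM in lung, against 468, 52.8 and 49.5 CPM in the cell line. It was lower as well, with and without replicate 1 (a log2 fold change of -2.57, SE 0.85, adjusted p = 0.0361 by edgeR, and -0.68 with adjusted p = 0.0304). The adjusted p of Trib3 was above 0.05 when lung replicate 1 (0.0653) or 2 (0.0753) was left out, and that of Ppp1r15a when lung replicate 1 (0.0907), 2 (0.101) or 3 (0.0646) was. Under limma-voom it was 0.104 for both genes, and for Ppp1r15a it was also above 0.05 with library size alone (0.0526) and with the filter of 10 or more counts in all samples (0.0631).

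**Figure D3:**
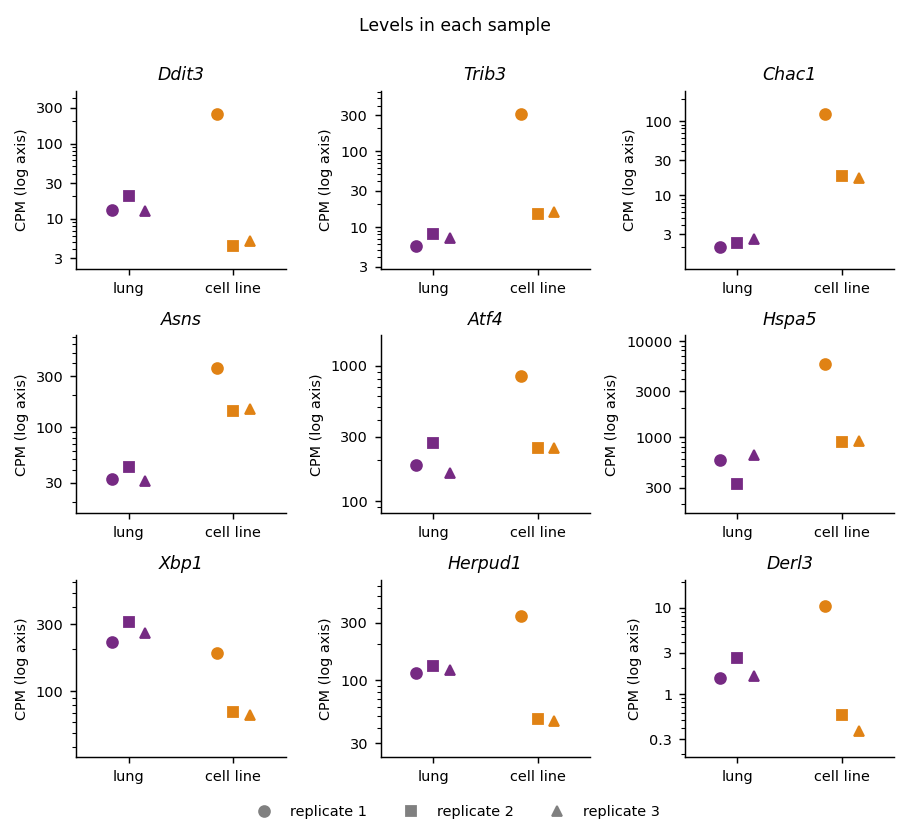
Level (CPM, log axis) of selected members in each sample, lung samples left and cell line samples right, 1 panel per gene. Replicate 1 of the cell line is the top point in all panels except that of Xbp1, where all 3 lung samples, from 225 to 312 CPM, lie above it.

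The ATF4-linked effectors split into genes low in lung and genes near replicates 2 and 3. Asns, which makes asparagine, had 33.0, 41.9 and 31.2 CPM in lung replicates 1, 2 and 3, against 363, 141 and 148 CPM in cell line replicates 1, 2 and 3. Chac1, which breaks down glutathione, had 2.04, 2.26 and 2.55 CPM in lung, against 127, 18.4 and 17.2 CPM in the cell line. Asns and Chac1 lay below every cell line sample. Stc2, a secreted glycoprotein, had 6.51, 3.89 and 4.99 CPM in lung, against 103, 24.0 and 22.0 CPM in the cell line, lying below the cell line too. All 3 were lower with all samples (a log2 fold change of -2.62, SE 0.42, adjusted p = 0.00127 by edgeR for Asns, a log2 fold change of -4.58, SE 0.85, adjusted p = 0.00267 by edgeR for Chac1 and a log2 fold change of -3.28, SE 0.65, adjusted p = 0.00362 by edgeR for Stc2). Without replicate 1 the changes were -2.04, -2.98 and -2.17, with adjusted p of 0.00110, 5.67e-04 and 0.00189. Together with Atf3, they were the members called the same way in every alternative run.

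The other effectors were not called in either fit. Sesn2, a leucine-binding inhibitor of mTORC1 signalling, had 20.4, 14.8 and 25.3 CPM in lung, against 81.4, 11.9 and 15.9 CPM in the cell line. Ddit4, known as REDD1 and another inhibitor of mTORC1, had 40.3, 43.3 and 37.5 CPM in lung, against 102, 36.2 and 36.5 CPM in the cell line. Vldlr, a lipoprotein receptor, had 39.8, 14.0 and 41.0 CPM in lung, against 147, 38.7 and 42.9 CPM in the cell line. In these 3 genes replicate 1 was 5.75-fold, 2.78-fold and 3.59-fold above the other cell line samples, while lung overlapped replicates 2 and 3 in Sesn2 and Vldlr and lay just above them in Ddit4. Their log2 fold changes were -0.85, -0.53 and -1.27, with edgeR adjusted p of 0.331, 0.328 and 0.118.

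ATF4 binds C/EBP-ATF response elements (CARE), and these were searched in promoter windows because the members stood high together in replicate 1. The windows run from 250 bases before to 50 after the RefSeq start of each gene, on GRCm38.p6, a build other than the GRCm39 of the submitters' processing notes, and 34 of the 37 members had one. The core TGATGNAA, on either strand, was in 7 of the 34 (20.6%), Atf3, Nupr1, Trib3, Asns, Chac1, Vldlr and Herpud1. It was in 2.87% of the 11418 tested genes with a window and in 4.51% of all 27025 genes with one. The members were drawn from genes known for this pathway, so their higher share is no independent result. Stretches around the match are shown for Asns and Chac1, the effectors with the firmest calls, for Atf3, and for Herpud1, an ER degradation gene with the same core. Capitals mark the fixed letters of the core, and each stretch is written 5′ to 3′ on the gene's strand.
Asns, chr6:7693210-7693252, minus strand: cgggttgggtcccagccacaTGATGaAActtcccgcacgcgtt
Chac1, chr2:119351029-119351076, plus strand: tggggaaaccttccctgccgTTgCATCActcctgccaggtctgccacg
Atf3, chr1:191183416-191183463, minus strand: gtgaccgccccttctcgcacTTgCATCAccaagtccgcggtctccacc
Herpud1, chr8:94386297-94386344, plus strand: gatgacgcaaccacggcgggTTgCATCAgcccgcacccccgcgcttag
In Chac1, Atf3 and Herpud1 the core reads on the opposite strand. The excess in replicate 1 was a median of 3.59-fold (1.71 to 19.5) in the 7 members with the core and 3.65-fold (1.66 to 48.4) in the 27 without. The CRE site TGACGTCA was in 1 of 34 members, Ppp1r15a, against 3.34% of tested genes. A match is a run of letters and not a measured binding site.

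Further genes of the integrated stress response were counted from lists that hold no member. Of all genes in the test, lung was higher in 31.3% and lower in 17.5%, and 6.32% were 2-fold or more up and 6.65% 2-fold or more down in replicate 1, and the counts of each list stand against these shares. Of 13 eIF2alpha kinases and control factors, 0 were higher and 5 lower in lung. Eif2s1 and Eif2s2, subunits of eIF2, had the highest mean CPM of the 5. Eif2s1 had 86.2, 111 and 69.1 CPM in lung, against 171, 253 and 262 CPM in the cell line. Eif2s2 had 136, 174 and 106 CPM in lung, against 621, 461 and 470.1 CPM in the cell line. In this list 2 of 13 genes were 2-fold or more up in replicate 1, with a list median of 0.977-fold, against 3.65-fold for the members.

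Of 20 amino acid genes linked to ATF4, 15 were lower and 1 higher in lung, and 12 were 2-fold or more up in replicate 1, with a list median of 2.54-fold. Phgdh, the first enzyme of serine synthesis, had 117, 179 and 87.2 CPM in lung replicates 1, 2 and 3, against 795, 591 and 565 CPM in cell line replicates 1, 2 and 3, and Slc38a2, an amino acid carrier, had 229, 98.6 and 201 CPM in lung, against 967, 638 and 654 CPM in the cell line. Cbs, of cysteine synthesis, went the other way, with 5.55, 5.93 and 7.12 CPM in lung, against 0.560, 1.56 and 2.48 CPM in the cell line. The cystine carrier Slc7a11 and the folate enzyme Aldh1l2, picked here after their values were seen, were 12.2-fold and 13.5-fold above the others in replicate 1.

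Of 13 aminoacyl-tRNA synthetase and tRNA export genes, 12 were lower in lung with all samples and 12 without replicate 1. Gars and Nars charge tRNA with glycine and asparagine. Gars had 109.9, 124 and 109 CPM in lung, against 674, 361 and 362 CPM in the cell line. Nars had 145, 127 and 128 CPM in lung, against 835, 369.6 and 372 CPM in the cell line. The list median in replicate 1 was 1.67-fold, compared with 3.65-fold for the members. Of 12 other outputs tested, 4 were lower and 0 higher in lung. In replicate 1, 10 of these 12 were 2-fold or more up and the list median was 3.30-fold, near that of the members. Eif4ebp1, a brake on translation, had 29.7, 72.8 and 27.4 CPM in lung, against 259.7, 125 and 126 CPM in the cell line, and Lonp1, a mitochondrial protease, had 66.8, 61.4 and 67.8 CPM in lung, against 564, 244 and 251 CPM in the cell line.

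In the ATF6 branch 5 of 12 genes were lower in lung, 0 were higher, and 11 were 2-fold or more up in replicate 1, where 17.5%, 31.3% and 6.32% of all genes were. Summed over the branch, the level was 3786, 2572 and 3886 CPM in lung, against 19834, 5031 and 5151 CPM in the cell line. Atf6, the sensor that is cut to release its factor, had 80.1, 37.6 and 84.9 CPM in lung replicates 1, 2 and 3, against 341, 123 and 116 CPM in cell line replicates 1, 2 and 3. Lung was below all cell line samples, and the gene was lower (log2 fold change of -1.52, SE 0.51, adjusted p = 0.0368 by edgeR), but not without replicate 1 (-0.84 with adjusted p = 0.112).

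Hspa5, which encodes BiP, the main ER chaperone and the brake on all the sensors, held the largest part of the sum in replicate 1. It had 578, 324 and 662 CPM in lung replicates 1, 2 and 3, against 5743, 889.7 and 909.9 CPM in cell line replicates 1, 2 and 3. Lung was below every cell line sample and replicate 1 was 6.38-fold above the others, with a log2 fold change of -2.27, SE 0.77, adjusted p = 0.0394 by edgeR in the full fit and -0.80 with adjusted p = 0.107 without replicate 1. Per length, in TPM, which divides counts by transcript length, Hspa5 came first among members in replicate 1, with 4325 TPM against 2737 TPM for Calr. In lung and in replicates 2 and 3 Calr came first, with 607 and 732 TPM, while Hspa5 averaged 409 and 666 TPM.

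Hsp90b1, the ER member of the HSP90 family, had 738, 326 and 680.3 CPM in lung, against 3549, 829.7 and 875 CPM in the cell line. Hyou1, which exchanges the nucleotide on BiP, had 121, 58.1 and 149 CPM in lung, against 999.6, 253 and 258 CPM in the cell line. In both, lung replicate 2 was the lowest of all samples and no lung sample reached the cell line. Hyou1 was lower with all samples and without replicate 1 (a log2 fold change of -2.20, SE 0.63, adjusted p = 0.0197 by edgeR, and -1.24 with adjusted p = 0.0458), and its adjusted p was 0.0591 without lung replicate 2. Hsp90b1 was not called (log2 fold change of -1.59, SE 0.63, adjusted p = 0.0695 by edgeR), but it was without cell line replicate 2 (0.0366) or 3 (0.0456), with no filter (0.0464) and by the Wald test of DESeq2 (0.0124).

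The lectin chaperones Calr and Canx hold glycoproteins until they fold. Calr had 656, 587 and 684 CPM in lung, against 2986, 810.1 and 824 CPM in the cell line, and Canx had 396, 211 and 425 CPM in lung, against 1226, 657 and 663 CPM in the cell line. Lung was again below all cell line samples in both, and replicate 1 stood out less for Canx, at 1.86-fold, than for Calr, at 3.65-fold. Canx was lower (log2 fold change of -1.30, SE 0.40, adjusted p = 0.0264 by edgeR), with 0.0659 when replicate 1 and 0.0588 when lung replicate 1 was left out, 0.0617 with library size alone and 0.0573 with the filter of 10 counts. Calr was not called (log2 fold change of -1.26, SE 0.53, adjusted p = 0.0839 by edgeR), and was below 0.05 without cell line replicate 2 (0.0434) or 3 (0.0497) and by the Wald test of DESeq2 (0.0253).

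Pdia3 and Pdia4 form and shuffle disulfide bonds. Pdia3 had 693, 525 and 626 CPM in lung, against 2528, 943 and 979 CPM in the cell line, and Pdia4 had 154, 106 and 168 CPM in lung, against 787, 191 and 200.4 CPM in the cell line. The groups did not overlap in either gene. Pdia3 was lower (log2 fold change of -1.27, SE 0.44, adjusted p = 0.0429 by edgeR), while Pdia4 was not called (log2 fold change of -1.46, SE 0.57, adjusted p = 0.0643 by edgeR). Pdia4 was below 0.05 without cell line replicate 2 (0.0285) or 3 (0.0375), with no filter (0.0417) and by the Wald test of DESeq2 (0.0148). The call of Pdia3 ended without lung replicate 1 (0.0889), 2 (0.0836) or 3 (0.0873) or cell line replicate 1 (0.0675), and with library size alone (0.0902), the filter of 10 counts (0.0914) or limma-voom (0.0545).

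Calls on Atf6 and Hspa5 were equally near the threshold. Atf6 had an adjusted p of 0.0665 without lung replicate 1 and 0.082 without lung replicate 2, 0.073 with library size alone and 0.0706 with the filter of 10 counts. Hspa5 had 0.0863, 0.114 and 0.057 without lung replicates 1, 2 and 3, 0.0604 with library size alone, 0.0688 with the filter of 10 counts and 0.0728 by limma-voom.

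Creld2 and Manf are small secreted or ER-resident proteins raised under ER stress. Creld2 had 35.1, 51.3 and 39.6 CPM in lung, against 233, 47.7 and 49.3 CPM in the cell line, and Manf had 81.8, 164 and 84.6 CPM in lung, against 565, 132 and 124 CPM in the cell line. Lung overlapped replicates 2 and 3 in both, with lung replicate 2 the highest lung sample, and neither was called (a log2 fold change of -1.39, SE 0.61, adjusted p = 0.0942 by edgeR for Creld2, and a log2 fold change of -1.31, SE 0.62, adjusted p = 0.115 by edgeR for Manf). Creld2 was below 0.05 without cell line replicate 2 (0.0344) or 3 (0.0443), and by the Wald test of DESeq2 both were (0.0341 for Creld2 and 0.0478 for Manf).

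The degradation factors of this branch, Herpud1 and Sel1l, differed from each other in the order of samples. Herpud1, a scaffold of the HRD1 ubiquitin ligase, had 115, 130.2 and 122 CPM in lung replicates 1, 2 and 3, against 341, 48.0 and 45.7 CPM in cell line replicates 1, 2 and 3. All lung samples lay above replicates 2 and 3 and below replicate 1, which gave a log2 fold change of -0.24, SE 0.73, adjusted p = 0.801 by edgeR with all samples and a higher call without replicate 1 (1.37 with adjusted p = 0.00304). Sel1l, the adaptor of HRD1, had 139, 50.6 and 161 CPM in lung, against 536, 106 and 106 CPM in the cell line. Lung replicates 1 and 3 were above and lung replicate 2 was below cell line replicates 2 and 3, with no call (log2 fold change of -1.10, SE 0.71, adjusted p = 0.231 by edgeR).

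ATF6 and XBP1 act on the ER stress element, CCAAT and CCACG separated by 9 bases of any kind, and this was searched on both strands of the same windows. It was in 9 of the 34 members with a window (26.5%), Hspa5, Hsp90b1, Calr, Canx, Creld2, Dnajc3, Pdia6, Syvn1 and Derl3. Of the 11418 tested genes with a window, 18 held it (0.158%), as did 0.137% of all genes with one. Thus 9 of the 18 tested genes with an exact match were members, and the list itself was drawn from genes known for this pathway. Stretches are shown for Hspa5 and Calr, which lead the branch, for Creld2, and for Dnajc3, Pdia6 and Derl3 of the XBP1 branch, with both ends of the element in capitals.
Hspa5, chr2:34772005-34772063, plus strand: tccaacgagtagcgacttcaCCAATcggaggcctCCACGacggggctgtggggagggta
Calr, chr8:84847055-84847113, minus strand: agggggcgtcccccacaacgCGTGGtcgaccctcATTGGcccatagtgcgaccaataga
Creld2, chr15:88819500-88819558, plus strand: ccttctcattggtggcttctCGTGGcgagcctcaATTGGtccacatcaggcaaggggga
Dnajc3, chr14:118937807-118937865, plus strand: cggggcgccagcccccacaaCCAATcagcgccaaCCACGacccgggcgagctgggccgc
Pdia6, chr12:17266471-17266529, plus strand: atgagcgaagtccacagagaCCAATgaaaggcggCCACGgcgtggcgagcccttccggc
Derl3, chr10:75893222-75893280, plus strand: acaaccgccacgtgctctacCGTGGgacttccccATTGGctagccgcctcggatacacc
In Calr, Creld2 and Derl3 the element reads on the opposite strand, and Hsp90b1 had 2 copies. The element of Hspa5 runs from -65 to -47 relative to the start. The excess in replicate 1 was a median of 3.65-fold (1.86 to 11.5) in the 9 members with the element and 3.59-fold (1.66 to 48.4) in the 25 without. The UPR element TGACGTGG was in 0 of the 34 members, against 1.01% of tested genes with a window, which says only that these letters are not in the windows. Atf6, Hyou1 and Manf had no window.

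Around this branch, genes of ATF6 processing showed no excess in replicate 1, with 0 of 6 at 2-fold or more. In lung 2 were higher and 2 lower. The proteases that cut ATF6 were lower: Mbtps1 had 157, 104 and 162 CPM in lung, against 270.0, 249 and 249.8 CPM in the cell line, and Mbtps2 had 29.7, 11.0 and 29.0 CPM in lung, against 84.0, 60.1 and 64.0 CPM in the cell line. Creb3l1, a related membrane-bound factor, was higher, with 23.5, 15.3 and 33.7 CPM in lung, against 8.45, 7.14 and 7.16 CPM in the cell line. Of 30 ER translocation, folding and disulfide genes, 7 were lower and 2 higher. Sec61a1, of the translocation channel, had 252, 192 and 261 CPM in lung, against 549.8, 389.9 and 383 CPM in the cell line, and Ssr3, of the translocon complex, had 400.1, 312 and 378 CPM in lung, against 1208, 746 and 777 CPM in the cell line. In the other direction Uggt2, a glucosyltransferase of glycoprotein quality control, had 5.43, 2.74 and 5.40 CPM in lung, against 1.45, 0.461 and 0.421 CPM in the cell line. Only 7 of the 30 were 2-fold or more up in replicate 1, and the list median was 1.55-fold.

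The IRE1 and XBP1 branch had the only member higher in lung. Xbp1, the factor whose mRNA IRE1 splices, had 225, 312 and 259.5 CPM in lung replicates 1, 2 and 3, against 188, 70.8 and 67.4 CPM in cell line replicates 1, 2 and 3. The 3 lung samples were above all cell line samples, replicate 1 included, and averaged 265 ± 44.0 CPM, against 109 ± 68.5 CPM over the cell line samples (SD, n = 3 each). Xbp1 was higher (a log2 fold change of 1.29, SE 0.43, adjusted p = 0.0373 by edgeR), and more so without replicate 1 (1.93 with adjusted p = 0.00185). The call ended without lung replicate 1 (adjusted p = 0.0581), 2 (0.0951) or 3 (0.0621) or without cell line replicate 2 (0.137) or 3 (0.138), while the direction held in each.

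Xbp1 is high in secretory cells, and most markers of such cells were higher in lung, but so were most markers of other lung cells. Higher were 5 of 5 fibroblast, 6 of 6 T cell and 6 of 7 macrophage and monocyte markers, against 31.3% of all genes. Of 10 B and plasma cell markers tested, 9 were higher in lung and 0 lower, and the list summed to 1022, 1761 and 1143 CPM in lung, against 714, 844 and 696 CPM in the cell line, where Sdc1 made up 301, 454 and 467 CPM. No marker tested of this list was at 0 in all cell line samples. The 7 alveolar type 2 markers summed to 14941, 21286 and 17980.3 CPM in lung, against 86.7, 79.7 and 81.7 CPM in the cell line, nearly all of it Abca3. The 5 endothelial markers summed to between 765 and 1667 CPM in lung, against 6.22 to 10.3 CPM in the cell line. The part of these cells in the level of Xbp1, and of any other member in lung, was not tested.

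Splicing by IRE1 could not be read. The annotated Xbp1 transcripts have no intron shorter than 300 bases, so none stands for the short excision, and Xbp1-201 took between 93.7% and 98.3% of the counts in all samples. The sensor transcript itself, Ern1, had 45.5, 15.9 and 48.6 CPM in lung replicates 1, 2 and 3, against 263, 76.1 and 77.4 CPM in cell line replicates 1, 2 and 3. Ern1 was lower (log2 fold change of -1.92, SE 0.61, adjusted p = 0.0308 by edgeR), in the opposite direction to Xbp1, but not without replicate 1 (-1.08 with adjusted p = 0.107) or without lung replicate 1 (0.0557) or 2 (0.0702), nor with library size alone (0.0543) or the filter of 10 counts (0.0565).

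The ER co-chaperones of the branch carry DNAJ domains that stimulate BiP. Dnajb9 had 34.9, 31.5 and 43.8 CPM in lung replicates 1, 2 and 3, against 112, 20.3 and 20.9 CPM in cell line replicates 1, 2 and 3. All lung samples were between replicate 1 and the other cell line samples. Dnajb9 was not called with all samples (log2 fold change of -0.48, SE 0.64, adjusted p = 0.565 by edgeR). It was called higher only when replicate 1 was left out (0.82 with adjusted p = 0.0280). Dnajc3, which also restrains eIF2alpha kinases, had 179, 107 and 189.7 CPM in lung, against 334, 103 and 103 CPM in the cell line, and Dnajb11 had 93.5, 99.6 and 95.1 CPM in lung, against 176, 87.3 and 83.1 CPM in the cell line. They showed the same order of samples, with replicate 1 on top and lung above replicates 2 and 3, and no call (a log2 fold change of -0.18, SE 0.50, adjusted p = 0.785 by edgeR for Dnajc3, and a log2 fold change of -0.27, SE 0.33, adjusted p = 0.534 by edgeR for Dnajb11).

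Pdia6, another disulfide isomerase, had 258, 236 and 261 CPM in lung, against 818, 314 and 319 CPM in the cell line. Edem1, which hands misfolded glycoproteins to degradation, had 112, 89.8 and 115 CPM in lung, against 212, 102 and 100.1 CPM in the cell line. Syvn1, the HRD1 ligase itself, had 47.3, 38.1 and 61.6 CPM in lung, against 110.5, 49.0 and 48.6 CPM in the cell line. Lung was below all cell line samples for Pdia6 and overlapped replicates 2 and 3 for Edem1 and Syvn1, and none was called, with edgeR adjusted p of 0.0918, 0.379 and 0.305. By the Wald test of DESeq2 Pdia6 was at 0.0452. The leading transcript of Syvn1 differed between samples, and Syvn1-204 took 28.2% to 35.2% of its counts in lung and 42.8% to 77.7% in the cell line.

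Derl3 and Sdf2l1 had the steepest excess of the branch. Derl3, a channel component of ER degradation, had 1.52, 2.61 and 1.61 CPM in lung replicates 1, 2 and 3, against 10.6, 0.576 and 0.369 CPM in cell line replicates 1, 2 and 3. Its cell line levels in replicates 2 and 3 were few counts, all assigned to Derl3-202 in replicate 2 and to Derl3-203 in replicate 3, while Derl3-201 took 83.1% to 98.3% in the other 4 samples. Sdf2l1, which works with Dnajb11, had 31.1, 63.6 and 31.9 CPM in lung, against 181, 20.5 and 18.2 CPM in the cell line. In both, lung was above replicates 2 and 3 and below replicate 1, at 11.5-fold and 9.16-fold. With all samples neither was called (a log2 fold change of -1.01, SE 1.10, adjusted p = 0.474 by edgeR for Derl3, and a log2 fold change of -0.80, SE 0.85, adjusted p = 0.465 by edgeR for Sdf2l1). Without replicate 1 Derl3 was called higher (2.0 with adjusted p = 0.0213) and Sdf2l1 was not (1.11 with adjusted p = 0.0549).

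Of 16 further ER degradation genes, 3 were lower and 1 higher in lung, against 17.5% and 31.3% of all genes. Vcp and Nploc4, of the complex that pulls proteins out of the membrane, were lower, with 386, 317 and 428 CPM in lung, against 604, 861 and 892 CPM in the cell line for Vcp and 76.5, 64.4 and 77.4 CPM in lung, against 138, 156 and 154 CPM in the cell line for Nploc4. Ern2, the epithelial paralogue of IRE1, was higher at a low level, with 0.999, 0.619 and 1.51 CPM in lung, against 0.0933, 0.173 and 0.211 CPM in the cell line. In replicate 1 the list median was 1.59-fold, and 5 of 16 genes were 2-fold or more up.

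**Figure D4:**
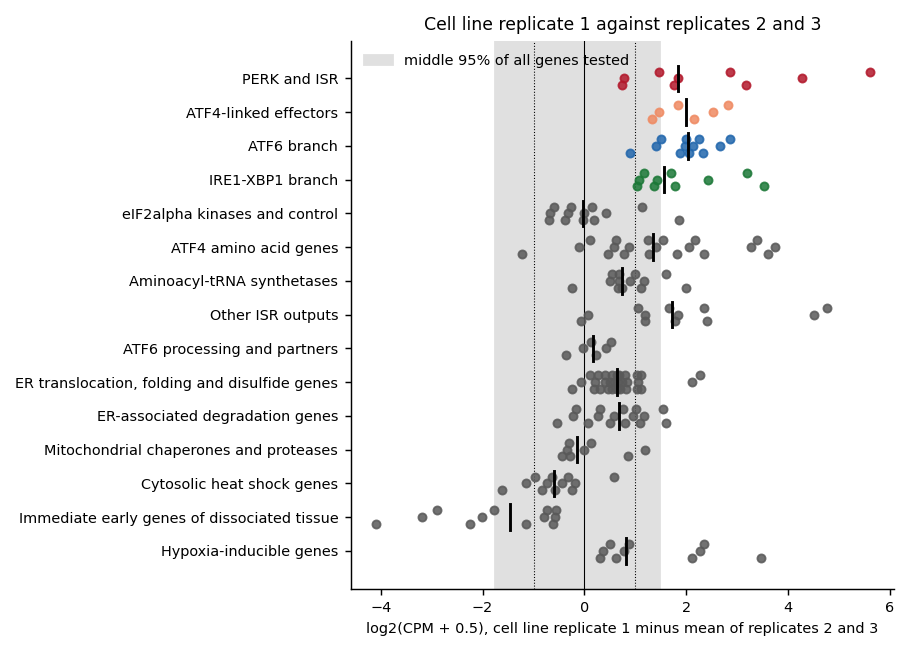
Log2 level of cell line replicate 1 minus replicates 2 and 3, 1 point per gene, for the 4 branches and 11 further lists, with a black bar at each median, dotted lines at 2-fold and a grey band that holds the middle 95% of 15212 genes. Members lie between 0.73 and 5.60, while heat shock and immediate early genes lie mostly below 0.

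Other stress programmes gave other values in replicate 1. Of 12 cytosolic heat shock genes, 0 were 2-fold or more up and 2 were 2-fold or more down in replicate 1 (median -0.60 on the log2 scale). Hspa8 had 1476, 1657 and 1474 CPM in lung, against 3988, 4517 and 4579.7 CPM in the cell line, and Hsp90ab1 had 1165, 1119.9 and 1159.6 CPM in lung, against 4011, 5007 and 5028 CPM in the cell line, both cytosolic chaperones and both lower in lung. Hspb1, a small heat shock protein, was higher, with 44.5, 125 and 48.3 CPM in lung, against 4.53, 15.1 and 14.8 CPM in the cell line. In lung 6 of the 12 genes were lower and 1 was higher. Of 8 mitochondrial chaperones and proteases, 6 were lower in lung and 0 higher, with 244, 224 and 193 CPM in lung, against 1074, 1436 and 1505 CPM in the cell line for Hspd1 and 226, 193 and 193 CPM in lung, against 1388, 758 and 784 CPM in the cell line for Hspa9, and the list median in replicate 1 was 0.910-fold.

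Immediate early genes, which rise when cells are handled or stimulated, were mostly low in replicate 1. Of 12, 7 were 2-fold or more down there and 0 up (median -1.46). Junb had 131, 165 and 112 CPM in lung, against 254, 419.8 and 429 CPM in the cell line, Klf6 had 212, 125 and 225 CPM in lung, against 435, 665 and 671 CPM in the cell line, and both were lower in lung, as were 5 others of the list. Btg2 was the gene of this list that was higher, with 117, 119.9 and 159 CPM in lung, against 38.7, 69.7 and 65.1 CPM in the cell line.

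Of 10 hypoxia-inducible genes, 4 were 2-fold or more up in replicate 1 and 0 down, with a list median of 1.77-fold. Slc2a1, the main glucose carrier, had 37.1, 31.6 and 42.3 CPM in lung, against 283, 150.1 and 159 CPM in the cell line, and Ero1l, an ER oxidase, had 65.2, 31.2 and 66.3 CPM in lung, against 578, 117 and 122 CPM in the cell line. Both were among the 5 that were lower in lung. Car9, a carbonic anhydrase, was the 1 that was higher, with 3.00, 3.01 and 2.86 CPM in lung, against 0.840, 1.04 and 0.263 CPM in the cell line. Whether culture, handling or oxygen had a part in the excess of the members in replicate 1 was not tested.

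Over these 11 lists 149 genes were tested that are no members. In lung 9 were higher and 70 lower, against 31.3% and 17.5% of all genes. Without replicate 1 the counts were 14 and 68, against 33.1% and 19.0%. In replicate 1, 42 of the 149 were 2-fold or more up and 10 were 2-fold or more down, against 6.32% and 6.65% of all genes.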

How the data were processed

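RNA was sequenced from 3 Lung_KP and 3 CellLine_KP samples with a stranded mRNA kit, per the labels' protocols, which also mention a Nugen amplification and give the cell line no protocol of its own. The table deposited by the authors holds estimated counts per transcript for each sample. Salmon 1.4.0, FastQC 0.11.9, DESeq2 1.32.0 and GRCm39 are named per the submitters' processing notes, with annotation and filters not given in the sources used here. Library totals ran from 17786758 to 22862396 counts. The limit of 3 counts behind a count of 0 came to 0.132 to 0.169 CPM on unscaled library sizes (counting error only).

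Of 76776 transcripts, 76521 (99.67%) matched GENCODE M21 by identifier and were summed to 20687 symbols, 19 of which joined more than 1 gene identifier. The other 255 transcripts held 0.107% to 0.416% of a library and were left out. The sums were rounded and tested with edgeR 4.0.16 in R 4.3.3 (TMM scaling, filterByExpr, robust quasi-likelihood F test, group only), adjusted by Benjamini-Hochberg over 15212 genes with a threshold of 0.05. P-values set the difference between the groups against the spread within them, which for the cell line may be technical. TPM used annotated transcript lengths. Reads that fit several transcripts were split by estimate, so transcript shares are uncertain. Promoter windows come from RefSeq (GRCm38.p6). The test was checked on simulated data in which far fewer genes were changed than were called here, so its rates there do not carry over. In that check it missed nearly all of the smaller changes. The share of its calls that were false was above the threshold of 0.05, but those calls were few. A gene not called is not shown to be unchanged, and calls near the threshold are less certain.

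The replicate 1 values are a description with no test, on log2 of CPM plus 0.5 and a limit of 2-fold. Members and lists were chosen with earlier results of these data known. All members are named, and from each further list the 2 called genes with the highest mean in the direction most calls took, plus the called gene with the largest change the other way. As alternatives, the scaling was replaced by library size alone or by DESeq2 size factors, the filter by none or by 10 counts in every sample, and the test by limma-voom (limma 3.58.1) or the Wald test of DESeq2 1.42.0. A replicate block was added, and each sample was left out in turn. For replicate 1 they were both scalings, a prior of 0.1 CPM, a limit of 1.5-fold, and replicate 2 or 3 alone as the comparison.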

Additional observations from a re-analysis of the deposited data

How the results depend on the processing

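Of the 13 called members, 4 (Atf3, Asns, Chac1 and Stc2) had the same call in all 13 alternatives, and 9 lost it in at least 1. The 12 lower members became 6 with library size alone (11.4% of all genes lower) and 6 with 10 or more counts in all 6 samples (14.2%). With 1 sample left out they became 5 to 16, where 11.8% to 24.3% of all genes were lower. The lowest count, 5, came without lung replicate 1 (11.8% of all genes lower) and without lung replicate 2 (24.3%). The 1 higher member became 0 to 5, where 27.1% to 33.1% of all genes were higher. The count was 5 without cell line replicate 1 (33.1%). In the further lists, the 9 higher genes became 7 to 14 and the 70 lower genes 54 to 72. These too are with 1 sample left out, against the same shares of all genes. The cause of these shifts was not tested. Library size alone moved the median log2 fold change of all genes to 0.31, from 0.08 with TMM scaling. DESeq2 gave no adjusted p for 5 members (Ddit3, Trib3, Ppp1r15a, Derl3 and Sdf2l1), which stayed out of its counts. In replicate 1, all scalings, the other prior and either single comparison gave 34 members at 2-fold or more. Of all genes, 6.32% to 9.38% were so, the most with the prior of 0.1 CPM. The 1.5-fold limit gave 37 members, where 16.1% of all genes were past it.

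Same-numbered samples correlated at -0.04, 0.08 and -0.08 in their deviations from the group means, which gave no sign that the replicate numbers pair the samples. With 3 samples per group this check cannot exclude pairing. With the replicate number as a block, 1 member was higher and 13 lower, and 9 and 67 genes of the further lists. Of all genes, 30.5% were higher and 16.6% lower under the block. The members called were not all those called without it: the adjusted p was 0.353 for Trib3 and 0.184 for Ppp1r15a, which were not called, and 0.0154 for Vldlr (log2 fold change of -1.15), 0.0243 for Hsp90b1 and 0.0308 for Pdia4, which were called lower. Under the block the log2 fold change turned positive for Ddit3 (0.22), Nupr1 (0.06), Herpud1 (0.50), Dnajb9 (0.04), Dnajc3 (0.01), Derl3 (0.53) and Sdf2l1 (0.09). Under limma-voom it did for Nupr1 (0.04), Herpud1 (0.43), Dnajc3 (0.02) and Derl3 (0.41), and Dnajc3 was at 0.04 with library size alone and at 0.00 with the filter of 10 counts. None of these members was called with all samples.

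With 1 sample left out, the log2 fold change changed sign in 15 members, none of them called with all samples. It ranged from -0.07 to 0.43 for Eif2ak3, -3.13 to 1.68 for Ddit3, -1.86 to 0.25 for Atf5, -0.03 to 1.12 for Cebpb, -0.62 to 0.65 for Nupr1 and -1.34 to 0.52 for Sesn2. It ranged from -0.85 to 0.14 for Ddit4, -0.73 to 1.37 for Herpud1, -1.52 to 0.12 for Sel1l, -0.92 to 0.82 for Dnajb9 and -0.53 to 0.61 for Dnajc3. It ranged from -0.51 to 0.16 for Dnajb11, -0.64 to 0.05 for Edem1, -1.61 to 2.0 for Derl3 and -1.32 to 1.11 for Sdf2l1. In 13 of the 15 members, cell line replicate 1 was the only sample whose removal changed the sign. For Eif2ak3 the sign changed without cell line replicate 2 or 3, and for Cebpb without lung replicate 2. The cause was not tested. Depth limits Derl3 most, at 0.576 and 0.369 CPM in cell line replicates 2 and 3.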
